A study of Mus musculus with 4 samples.

Results

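Hemidesmosomes are the junctions that fix basal epithelial cells to the basement membrane, and laminin-332 is the basement membrane protein they grip. The 8 genes described here encode parts of that link: the integrin genes Itga6 and Itgb4, the tetraspanin gene Cd151, the transmembrane collagen gene Col17a1, the plakin genes Dst and Plec, and the laminin chain genes Lama3 and Lamb3. They were chosen by name as a gene family and not from their measured values, though earlier results of these data were known. Each had 1 row among the 24907 distinct gene symbols of the count table. All 8 were expressed highly enough to be tested.

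The RNA-seq libraries came from ASZ001, a mouse basal cell carcinoma (BCC) cell line. Control cells carried an empty doxycycline-inducible vector and c-FOS cells carried the same kind of vector encoding the transcription factor c-FOS. Cells of both groups received doxycycline (Dox), and each group had 2 libraries. The sources used here give neither the dose nor the duration, nor whether the transfected cells were a pool or a clone, and c-FOS vector cells without doxycycline were not analysed here. Induction of c-FOS and any other difference between the lines of cells therefore cannot be told apart. Since no label ties the libraries of a group to separate cultures, the p-values here reflect only the spread between libraries, and that spread may be technical.

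In the hemidesmosome, integrin alpha6 (Itga6) and integrin beta4 (Itgb4) form 1 receptor that binds laminin-332 outside the cell. CD151 associates with that integrin in the membrane. Inside, plectin (Plec) and the epithelial form of dystonin (BP230, from Dst) connect the receptor and collagen XVII (BP180, from Col17a1) to keratin filaments. Of the chains of the laminin-332 trimer, Lama3 encodes alpha3 and Lamb3 encodes beta3. In skin, basal keratinocytes make all of these proteins.

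Levels are given as counts-per-million (CPM). Those of Fos, which the vector encodes, were 0.404 and 0.351 CPM in the control libraries, against 297 and 313 CPM in the c-FOS libraries. The libraries held between 28405433 and 32465409 counts, so the members rest on 4716 to 191383 counts per library. Of the basal keratinocyte markers checked, Krt5, Krt14, Trp63 and Cdh1 were all expressed in both groups. Their levels were lower with c-FOS, with log2 fold changes of -1.60, -0.53, -1.54 and -1.42.

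The members moved in both directions. Itga6, Plec, Lamb3 and Cd151 rose with c-FOS, and Dst, Col17a1, Lama3 and Itgb4 fell. A gene was called at an adjusted p under 0.05 (quasi-likelihood F test of edgeR, Benjamini-Hochberg over all 12791 tested genes). This was met by 4 members in the higher direction, where 33.8% of all tested genes passed, and by 4 in the lower direction, where 33.3% passed. That 8 of 8 members passed is thus set against 67.1% of all tested genes. The groups did not overlap for any of the 8 members, and they did not overlap for 83.6% of all tested genes. The median absolute log2 fold change was 0.67 over the members and 0.32 over all tested genes, and the signed medians were -0.10 and -0.01. Dst alone changed by 2-fold or more, a size that 15.5% of tested genes reached. In bulk RNA, fewer cells of a type and less RNA per cell cannot be told apart.

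**Figure D1:**
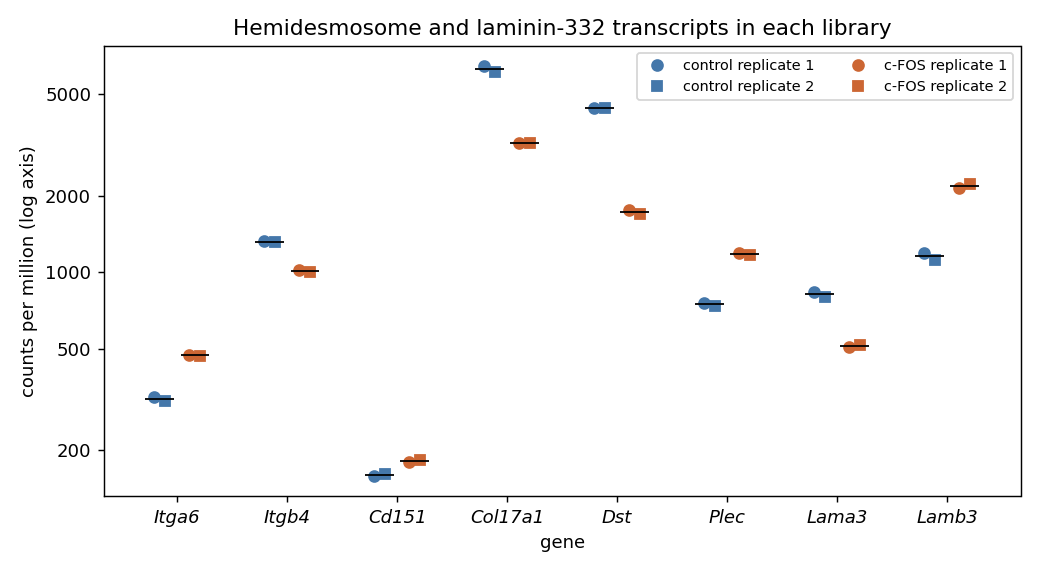
CPM of the 8 members in each library on a log axis, with circles for replicate 1, squares for replicate 2 and black lines for group means. The points of a group lie close together for every gene, and the control and c-FOS points of Dst, at about 4430 and 1724 CPM on average, are the farthest apart.

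The integrin subunit genes went opposite ways. Itga6 was at 323 and 311 CPM in the control libraries and at 473 and 470.5 CPM in the c-FOS libraries. Both c-FOS libraries were higher, by a log2 fold change of 0.57 ± 0.04 (SE; adjusted p = 6.60e-09 by edgeR). Itgb4, whose long cytoplasmic tail binds plectin, was at 1322 and 1315 CPM in the control libraries and at 1018 and 1005 CPM in the c-FOS libraries. Both c-FOS libraries were lower, by a log2 fold change of -0.38 ± 0.04 (SE; adjusted p = 3.13e-07 by edgeR). Per kilobase (kb) of the deposited gene model, Itgb4 was the more abundant of the pair in every library.

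The ratio of these subunits within a library does not depend on the scaling between libraries. Per kb, the level of Itga6 was 0.244 and 0.236 of that of Itgb4 in the control libraries. With c-FOS it was 0.464 and 0.467, a ratio 1.94-fold higher. Integrin alpha6 can also pair with integrin beta1, whose gene Itgb1 was at 815 ± 40.0 CPM in control and rose to 2203 ± 32.8 CPM (SD, n = 2 each), by a log2 fold change of 1.44 ± 0.04 (SE). Itga3, whose product pairs with integrin beta1 as the other main laminin-332 receptor of keratinocytes, was at 566 ± 1.15 CPM in control and fell to 413 ± 13.9 CPM (SD, n = 2 each), a log2 fold change of -0.46 ± 0.04 (SE).

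Cd151 showed the smallest change of the members. It was at 159 and 162 CPM in the control libraries and at 179.7 and 182 CPM in the c-FOS libraries. The c-FOS libraries were both slightly higher, with a log2 fold change of 0.18 ± 0.04 (SE; adjusted p = 0.000816 by edgeR). This call was lost when library totals replaced the TMM factors, with a log2 fold change of 0.04 (adjusted p = 0.347 by edgeR). That scaling moved the median of all tested genes to -0.14. Over the alternatives run, the adjusted p of Cd151 lay between 6.38e-07 and 0.347.

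Col17a1 was the most abundant member per kb in every library. It was at 6435 and 6097 CPM in the control libraries and at 3205 and 3225 CPM in the c-FOS libraries. Both c-FOS libraries were lower, on average by 1.95-fold, a log2 fold change of -0.96 ± 0.04 (SE; adjusted p = 6.98e-11 by edgeR). Within a library its level per kb was 5.30 and 5.05 times that of Itgb4 in control and 3.43 and 3.49 times with c-FOS.

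The plakin genes, whose products tie the junction to keratin filaments, also went opposite ways. Dst was at 4435 and 4424 CPM in the control libraries and at 1752 and 1697 CPM in the c-FOS libraries. It fell by 1.36 ± 0.04 on the log2 scale (SE; adjusted p = 1.03e-12 by edgeR), and 5.08% of tested genes had a lower log2 fold change. Plec was at 757 and 737 CPM in the control libraries and at 1187 and 1170.2 CPM in the c-FOS libraries. It rose by 0.66 ± 0.04 on the log2 scale (SE; adjusted p = 1.25e-09 by edgeR). The log2 ratio of Dst to Plec per kb was 3.32 and 3.36 in the control libraries and 1.33 and 1.31 in the c-FOS libraries. That ratio was thus 4.05-fold lower with c-FOS, the widest shift among the 4 pairs of genes compared.

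**Figure D2:**
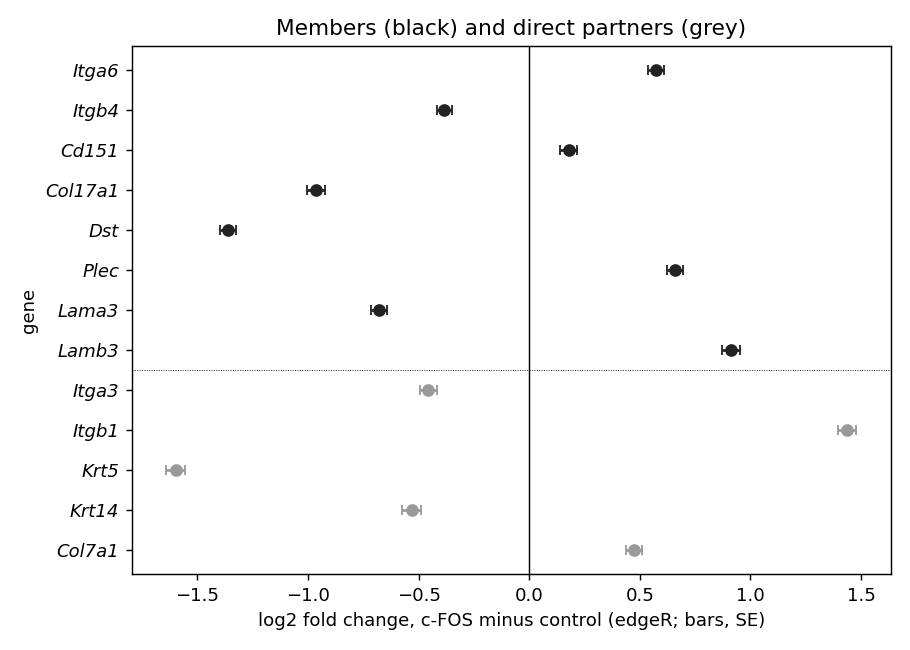
Log2 fold change of c-FOS against control for the 8 members (black) and for 5 genes whose products bind them or share their keratin filaments or fibrils (grey), with SE as bars. Members lie on both sides of 0, from -1.36 for Dst to 0.91 for Lamb3.

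Dst makes several proteins from different start sites, and the table has 1 row for all of them. The deposited gene model of Dst is 8761 bases long. The nearest protein-coding transcript in GENCODE vM21 has 8788 bases, and the longest has 23279 bases. The model is thus 37.6% as long as the longest transcript. It is nearest in length to the shortest of 3 transcripts (8788, 8961 and 16340 bases) that start 70 bases from the second RefSeq start of Dst. Lama3 is a similar case, with a model of 5510 bases beside transcripts of 5551 and 10548 bases. The sources used here do not say whether reads outside these models were counted, so the values cannot be taken to cover the long forms of Dst and Lama3. The models of Itgb4, Plec, Cd151 and Col17a1 lay within 45 bases of a coding transcript and between 96.2% and 102% of the longest one. The Lamb3 model, at 4030 bases, was within 17 bases of a transcript but 82.8% of the longest, and the Itga6 model, at 5990 bases, was longer than the longest coding transcript of 4310 bases.

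RefSeq promoter sequences (GRCm38.p6, a later build than the mm9 of the count table) were used for 4 members: Dst, Lamb3, Cd151 and Col17a1. No promoter of the other members was searched, and that of Lama3 is not reported here. The 250 bases before a start are printed 5′ to 3′ on the gene's strand. They show both Dst starts, since the deposited model is nearest in length to a transcript of the second, and 1 start for each of the genes that rose or fell beside it. Lamb3 and Cd151 each have another RefSeq start, whose window was searched but is not printed. For Lamb3 the printed start lies 1 base from that of a 4056-base transcript. The transcript nearest in length to its model, of 4013 bases, begins at the other start. Capitals mark the GC box GGGCGG and the TATA box TATAAA on either strand.
Dst, first start (chr1:34011345-34011594, plus strand): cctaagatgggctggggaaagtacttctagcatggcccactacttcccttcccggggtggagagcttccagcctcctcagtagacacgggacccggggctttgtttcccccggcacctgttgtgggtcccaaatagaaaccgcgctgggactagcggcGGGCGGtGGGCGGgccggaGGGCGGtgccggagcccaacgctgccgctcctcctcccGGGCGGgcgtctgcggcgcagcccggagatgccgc
Dst, second start (chr1:34160010-34160259, plus strand): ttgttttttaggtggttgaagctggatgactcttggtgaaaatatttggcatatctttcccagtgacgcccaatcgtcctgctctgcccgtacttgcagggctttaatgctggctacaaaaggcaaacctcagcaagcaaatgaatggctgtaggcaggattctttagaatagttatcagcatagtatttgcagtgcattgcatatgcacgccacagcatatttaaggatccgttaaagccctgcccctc
Lamb3 (chr1:193301744-193301993, plus strand): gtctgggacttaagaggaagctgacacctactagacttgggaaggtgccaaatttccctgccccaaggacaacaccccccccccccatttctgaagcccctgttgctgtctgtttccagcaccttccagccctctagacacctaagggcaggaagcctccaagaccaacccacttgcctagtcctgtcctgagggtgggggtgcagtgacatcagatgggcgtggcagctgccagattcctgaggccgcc
Col17a1 (chr19:47692043-47692292, minus strand): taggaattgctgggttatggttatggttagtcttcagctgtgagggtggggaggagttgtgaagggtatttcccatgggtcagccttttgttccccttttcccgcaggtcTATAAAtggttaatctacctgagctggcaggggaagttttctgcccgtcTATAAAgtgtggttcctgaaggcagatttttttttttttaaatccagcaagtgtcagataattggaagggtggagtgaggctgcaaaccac
Cd151 (chr7:141467112-141467361, plus strand): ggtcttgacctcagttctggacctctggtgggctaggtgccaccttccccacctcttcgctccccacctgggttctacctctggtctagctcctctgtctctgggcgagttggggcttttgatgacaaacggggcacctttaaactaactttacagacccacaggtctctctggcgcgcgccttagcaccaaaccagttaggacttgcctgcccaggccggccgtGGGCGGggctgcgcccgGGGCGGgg

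The first Dst start, which lies within 230 bases of the starts of transcripts of 17212, 23251 and 23279 bases, had 4 GC boxes and a GC content of 68.8%. The second Dst start had none and a GC content of 45.2%. Cd151 had 2 GC boxes, and Col17a1 had 2 TATA boxes, at 140 and 91 bases before its start. Over all 32851 promoter windows of 250 bases, 32.7% held a GC box and 12.4% a TATA box. Because c-FOS acts as part of the AP-1 dimer, the AP-1 motif TGANTCA was searched on both strands in all 7 windows of these genes, along with the CRE motif TGACGTCA and the GLI motif GACCACCCA. None of the 3 motifs was found in these windows, and 6.75%, 1.55% and 0.225% of all windows held them. This says only that these letters are not within 250 bases of the listed starts.

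The laminin chain genes Lama3 and Lamb3 diverged from one another. Lama3 was at 837 and 801 CPM in the control libraries and at 508 and 516 CPM in the c-FOS libraries. Both c-FOS libraries were lower, with a log2 fold change of -0.68 ± 0.04 (SE; adjusted p = 1.28e-09 by edgeR). Lamb3 was at 1194 and 1118 CPM in the control libraries and at 2132 and 2219 CPM in the c-FOS libraries. Both c-FOS libraries were higher, with a log2 fold change of 0.91 ± 0.04 (SE; adjusted p = 1.71e-10 by edgeR), and 91.2% of tested genes had a lower log2 fold change. Per kb, Lama3 stood at 0.513 and 0.524 of Lamb3 in the control libraries and at 0.174 and 0.17 in the c-FOS libraries. This ratio was 3.01-fold lower with c-FOS, and Lamb3 was the more abundant of the pair in each library and by a wider margin in c-FOS cells.

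**Figure D3:**
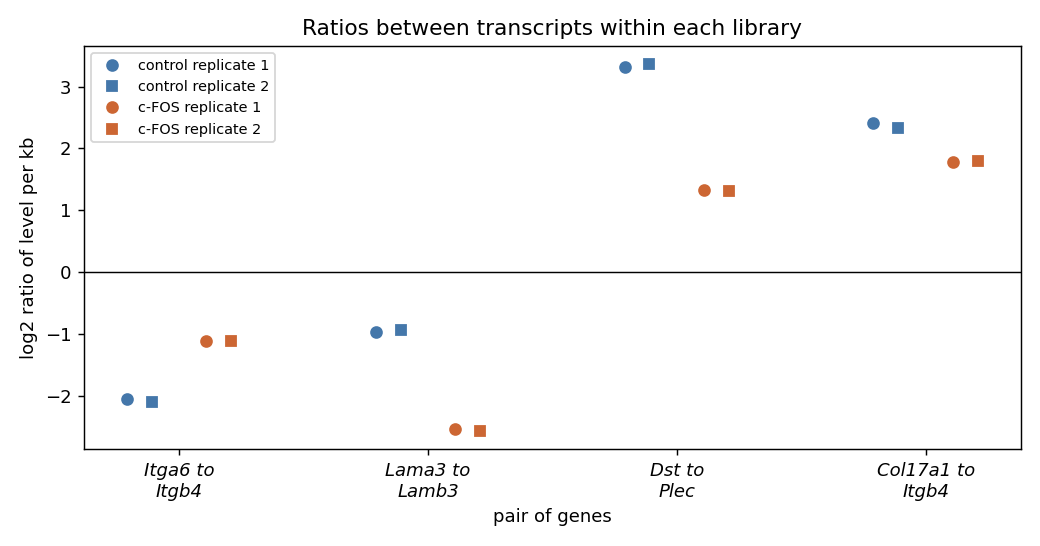
Log2 ratio of the level per kb between 4 pairs of genes in each library, with circles for replicate 1 and squares for replicate 2. The c-FOS points lie above the control points for Itga6 to Itgb4 and below them for the other 3 pairs, among which Dst to Plec moves farthest, from 3.34 to 1.32 on average.

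Summed, the 8 transcripts took up less of the library with c-FOS, and their make-up shifted. Most of the sum in control came from Col17a1 and Dst, which both fell, while 4 members rose. Their summed level was 15463 and 14965 CPM in the control libraries and 10455 and 10483 CPM in the c-FOS libraries. Per kb, Col17a1 made up 46.2% and 45.4% of the sum in control and 32.0% and 31.8% with c-FOS. The share of Dst was 19.9% and 20.6% in control and 10.9% and 10.5% with c-FOS, and that of Lamb3 was 11.7% and 11.3% in control and 28.9% and 29.8% with c-FOS.

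The order of levels per kb in control cells was Col17a1 (1143 ± 43.6 CPM per kb), Dst (506 ± 0.857), Lamb3 (287 ± 13.2), Itgb4 (221 ± 0.802), Lama3 (149 ± 4.62), Cd151 (84.5 ± 1.11), Itga6 (53.0 ± 1.42) and Plec (49.9 ± 0.980; SD, n = 2). The 2 libraries of neighbouring genes in that order did not overlap. With c-FOS, Lamb3 (540 ± 15.2 CPM per kb) stood above Dst (197 ± 4.48), and Cd151 (95.6 ± 1.03) above Lama3 (92.9 ± 0.980; SD, n = 2). Itga6 (78.8 ± 0.35) and Plec (78.7 ± 0.783; SD, n = 2) overlapped and did not differ beyond their spread in c-FOS cells. These levels rest on the deposited model lengths, including those of Dst, Lama3 and Itga6 discussed above.

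**Figure D4:**
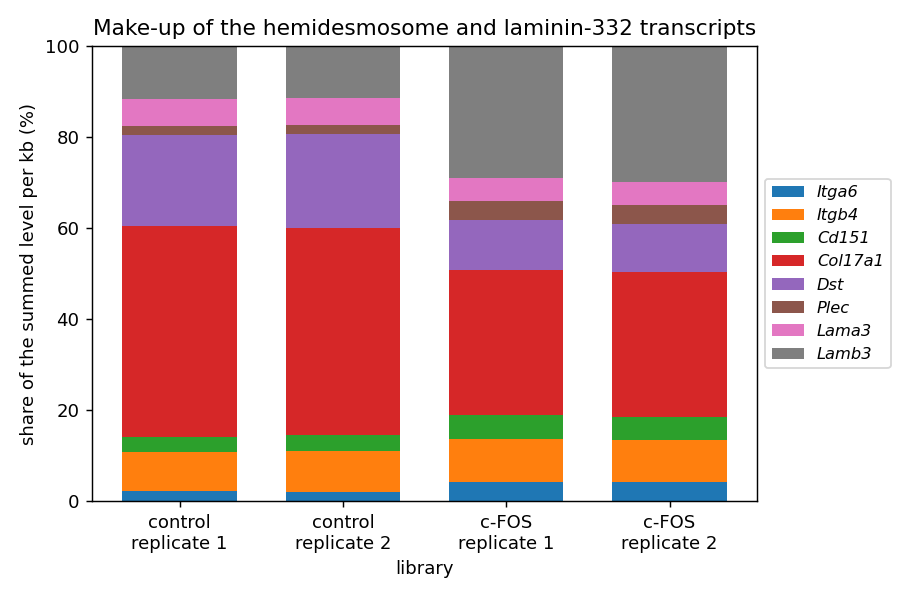
Share of each member in the summed level per kb of the 8 members, for each library, as stacked bars from 0 to 100%. Lamb3 fills 11.7% and 11.3% of the control bars and 28.9% and 29.8% of the c-FOS bars, while Col17a1 goes from 46.2% and 45.4% to 32.0% and 31.8%.

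The proteins that the junction holds on to were followed through their genes. Among 12 tested partners in anchorage, 5 rose, 6 fell and 1 missed the threshold, where 33.8% and 33.3% of all tested genes passed as higher and lower. Fermt1 (-0.10), which encodes the integrin activator kindlin-1, lost its call with the replicate block (adjusted p = 0.072 by edgeR), with DESeq2 and without either c-FOS library, and Lamb1 (0.075), a laminin beta1 chain gene, passed as higher without control replicate 2 (0.13). The median log2 fold change of the 12 was -0.014, against -0.0057 over all tested genes. Krt5 and Krt14 encode the basal keratins to which plectin and BP230 attach. Krt5 fell from 11383 ± 399 to 3761 ± 41.3 CPM and Krt14 fell from 7137 ± 222 to 4944 ± 206 CPM (SD, n = 2 each). Col7a1, which encodes the anchoring fibril collagen that binds laminin-332 from below, rose from 1015 ± 23.7 to 1408 ± 0.165 CPM. Erbin, whose product binds integrin beta4 and BP230, fell by 0.54 on the log2 scale, and Lama5, the alpha chain of another epidermal laminin, fell by 0.61.

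The tested genes on a list of proteases that process laminin-332 or collagen XVII were higher or did not pass. Of the 8 that reached the minimum of the expression filter (10 counts, scaled to library size) in both libraries of both groups, 6 rose and none fell (median log2 fold change 0.54), where 33.8% and 33.3% of all tested genes passed as higher and lower. The 2 that missed the threshold were Adam17, a sheddase of collagen XVII (0.01), and Mmp2 (-0.16). Tll1, a relative of the laminin-processing enzyme BMP1, was tested only because of its level with c-FOS, with 3.5 and 2 counts in the control libraries and 112 and 147.5 in the c-FOS libraries. Plat, the tissue plasminogen activator gene, rose from 22.0 ± 1.67 to 56.3 ± 1.07 CPM (SD, n = 2 each). Plg, the plasminogen gene, was not tested, with 2 and 0 counts in the control libraries and 0 and 1 in the c-FOS libraries. Mmp9 and Tll2 were not tested either, with no more than 2 counts in any library. Mmp14, a membrane metalloprotease gene, rose by 0.72 and Adam9, another sheddase gene, by 0.65 on the log2 scale. With library totals, Adam17 (-0.13) and Mmp2 (-0.30) passed as lower (adjusted p of 0.0298 and 0.048 by edgeR; the highest over the alternatives was 0.989 and 0.63).

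All 14 genes of kinases and adaptors of integrin beta4 signalling that reached the minimum count in both groups passed, 9 as higher and 5 as lower (median log2 fold change 0.28), again beside 33.8% and 33.3% of all tested genes. Mst1r, a receptor gene related to Met, reached it in the control group only, was below 1 CPM on average in both groups and passed as lower (-0.83, adjusted p = 0.048 by edgeR). It lost its call with no filter, with DESeq2 and without control replicate 1, c-FOS replicate 1 or c-FOS replicate 2. Fyn, a Src family kinase gene, lost its call as higher with library totals (0.05). Egfr, the receptor whose signalling can loosen hemidesmosomes, fell from 127 ± 3.30 to 43.4 ± 0.415 CPM, and Erbb3, a receptor of the same family, fell from 76.2 ± 4.65 to 40.1 ± 0.556 CPM (SD, n = 2 each). Prkcd, a protein kinase C gene, fell by 1.03 on the log2 scale. Met, the hepatocyte growth factor receptor gene, rose from 416 ± 22.1 to 810.1 ± 9.85 CPM (SD, n = 2 each).

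The members' relatives were compared as families. Of the 5 other plakin genes, 3 rose and 1 fell (median log2 fold change 0.34), where 33.8% and 33.3% of all tested genes passed as higher and lower. Evpl (0.97), Ppl (0.43) and Macf1 (0.34) rose, as Plec did, Eppk1 fell by 0.81, and the desmosomal plakin gene Dsp, at 1826 ± 65.3 and 1883 ± 1.66 CPM (SD, n = 2 each), missed the threshold (0.04, with an adjusted p of 0.325 by edgeR). Dsp passed as lower with library totals (-0.09, adjusted p = 0.0373 by edgeR) and as higher without control replicate 1 (0.08, adjusted p = 0.00775 by edgeR), within a range of 0.00775 to 0.803 over the alternatives run. Of the 12 other tetraspanin genes that reached the minimum count in both groups, 8 rose and 1 fell (median log2 fold change 0.35), beside 33.8% and 33.3% of all tested genes. Tspan14 (0.13) lost its call with library totals, upper-quartile factors, a minimum count of 50, DESeq2 and without c-FOS replicate 2. Cd63 rose by 1.52 and Cd81 by 1.37 on the log2 scale, and Tspan9 fell by 1.07. Tspan15 reached the minimum count in the c-FOS group only, was below 1 CPM in both groups and passed as higher (1.11). It lost its call with library totals, with DESeq2 and without control replicate 1 (0.52), c-FOS replicate 1 (1.22) or c-FOS replicate 2 (0.99), and was at 2.19 without control replicate 2 (adjusted p of 0.000338 to 0.268 over the alternatives run). Cd9, a tetraspanin of the same integrin complexes, missed the threshold (-0.06) but passed as lower with library totals, with upper-quartile factors and without control replicate 2 (-0.20, -0.12 and -0.07).

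**Figure D5:**
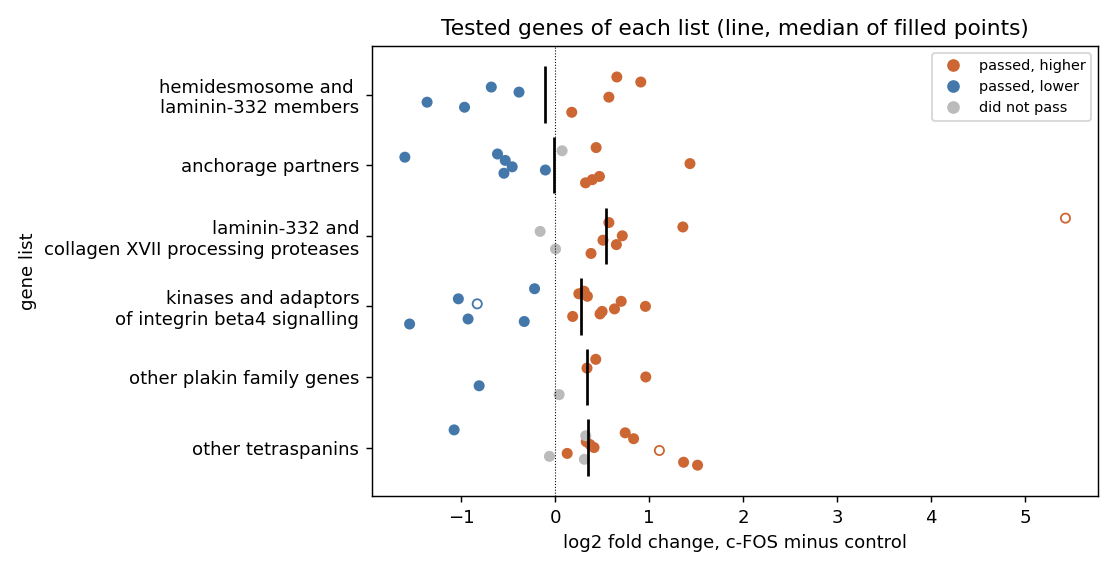
Log2 fold change of c-FOS against control for each tested gene of the 8 members and of 5 related lists, with colours for the edgeR call, open circles for genes at the minimum count in 1 group only and a black line for the median of the others. The members spread on both sides of 0, as do the anchorage partners and the kinases and adaptors, whereas no protease gene passed as lower with the TMM factors used and Tll1 stands far to the right at 5.43 (6.02 without control replicate 1).

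The genes whose pattern over the 4 libraries was closest to each member were found among 4781 other genes with a mean of at least 50 CPM. Likeness was the root mean square difference of log2 CPM centred on each gene's mean. The closest to Dst were Celsr1 (0.0156) and Igfbp2 (0.0235), and the closest to Col17a1 were Sema3f (0.0112) and Serinc5 (0.0147). For Lamb3 they were Tsc22d1 (0.00433) and Tex264 (0.0127), for Lama3 Efnb1 (0.00937) and Itm2b (0.0110), for Itga6 Git1 (0.00933) and Ice1 (0.0118), for Itgb4 Hnrnpl (0.00573) and Champ1 (0.00591), for Plec Sh3rf1 (0.00717) and Saraf (0.00790) and for Cd151 Mon2 (0.00327) and Mrps7 (0.00415). No member was among the closest genes of another. With 2 groups of 2 libraries this measure rests mainly on the size of the fold change.

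Markers of basal keratinocytes and of other cells that can express these genes were also checked. Summed over 7 basal keratinocyte markers, the level was 19930 to 20145 CPM in control and 9320 to 9657 CPM in c-FOS libraries. Of these 7, 6 fell and Epcam did not pass. Beside the marker counts here and below, 33.8% of all tested genes passed as higher and 33.3% as lower. Endothelial and Schwann cells also carry integrin alpha6. Of 7 endothelial markers 3 were tested and rose, and the sum was 112.9 to 113.0 CPM in control and 212 to 216 CPM with c-FOS. Most of that rise came from Flt1, which went from 30.9 ± 2.44 to 111 ± 2.55 CPM (SD, n = 2 each). Pecam1 went from 81.3 ± 2.54 to 100.6 ± 0.489 CPM and Tek from 0.759 ± 0.123 to 1.95 ± 0.0442 CPM. Kdr, Emcn and Cldn5 were at 0 in all libraries, and Cdh5 was at most at 0.0260 ± 0.0140 CPM (SD, n = 2). Of 6 Schwann cell markers, 2 reached the minimum count in both groups and neither passed. Ngfr was tested only because of its level with c-FOS, with 12 and 3.5 counts in the control and 689 and 783 in the c-FOS libraries. The sum of the Schwann list was 6.96 to 7.53 CPM in control and 30.9 to 32.4 CPM with c-FOS. Sox10 was at 0 in both control libraries and had 0 and 0.5 counts in the c-FOS libraries.

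The remaining lists were low beside the members. The sum of 8 fibroblast markers was 5.40 to 5.65 CPM in control and 17.6 to 19.1 CPM with c-FOS. Col1a2 and Pdgfra, the markers that reached the minimum count in both groups, rose. Pdgfrb was tested only because of its level with c-FOS, with no counts in control and 75.5 and 82 in the c-FOS libraries. Col1a1 missed the threshold (0.83, adjusted p = 0.107 by edgeR) and was at 1.44 without control replicate 1. Dcn was not tested and went the other way, with 8.5 and 18.5 counts in control and 4 and 3.5 in the c-FOS libraries. Thy1 was at 0 throughout. Macrophage and leukocyte markers summed to 17.0 to 18.9 CPM in control and 41.5 to 45.0 CPM with c-FOS. Most of that rise came from Csf1r, at 0.305 ± 0.115 CPM in control and 18.4 ± 0.0458 CPM with c-FOS (SD, n = 2 each). Csf1r was tested only because of its level with c-FOS. It had 11.5 and 7 counts in control and 511.5 and 571.5 in the c-FOS libraries. Cd68 and Cd14 rose (Cd68 not without c-FOS replicate 2, at 0.29), and Ptprc was at 0.0691 ± 0.0293 CPM in c-FOS cells (SD, n = 2). Melanocyte markers summed to 48.5 to 51.7 CPM over the 4 libraries, neither of the tested Mitf and Pmel passed except as lower with library totals (-0.15 and -0.86), and Mlana and Tyr were at 0. The part of these lists in the members' changes was not tested.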

How the data were processed

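Total RNA of adherent ASZ001 cells was made into TruSeq libraries, per the labels' protocols. Reads were aligned with TopHat and analysed with HOMER, per the series design text, and the build was mm9 and DESeq2 was used, per the submitters' processing notes. The values the authors deposited are expected counts per gene symbol in steps of 0.5, without normalization, beside a gene model length in bases (unit other). The sources used here give no versions, annotation or strand setting, nor how reads of close relatives were split, so reads of antisense partners cannot be told apart.

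Where a symbol stood on 2 rows (2 symbols), the row with the higher total was used, which left 24907 of 24909 rows. Counts were rounded to whole numbers, with steps of 0.5 rounded upwards. Genes were kept by filterByExpr on the groups, with at least 10 counts and a total of at least 15. Library sizes were scaled by TMM. Both groups were compared in a two-sided quasi-likelihood F test across all genes (glmQLFTest, edgeR 4.0.16 in R 4.3.3). Each gene had 2 residual degrees of freedom, and its dispersion was moderated over all genes with 11.3 prior degrees of freedom. The p-values were adjusted by Benjamini-Hochberg with a threshold of 0.05. Standard errors of log2 fold changes derive from the F statistic. CPM use the effective library size and the unrounded counts, and levels per kb divide by the deposited length. The common biological coefficient of variation was 3.38%. The procedure was tested on simulated counts with the common dispersion and far fewer changed genes than were called here. That test therefore cannot vouch for these calls. Replicates differed by more than sampling noise (chi-square per degree of freedom 5.00 in control and 1.98 in c-FOS), so each library counted once. The members and lists were chosen with earlier results of these data known, and no list was tested as a set. From each list, the called genes with the 4 largest absolute log2 fold changes and the direct partners of the members were named, besides genes that did not pass or were chosen after their values were seen (Dsp, Adam17, Mmp2, Epcam, Ngfr, Mst1r, Fyn, Fermt1, Lamb1, Tspan14 and the markers). A gene of the anchorage list is not reported here and stays out of its counts.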

Additional observations from a re-analysis of the deposited data

How the results depend on the processing

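Under 11 alternatives (RLE factors, library totals, upper-quartile factors, no filter, a minimum count of 50, DESeq2 1.42.0, the replicate block and leaving out each library), the count of members that fell was 4 throughout, and the count that rose was 4, or 3 with library totals, where Cd151 did not pass. The number of all genes that passed lay between 7102 (DESeq2) and 9096 (library totals), against 8589. Library totals gave 35.4% of the called genes as higher, against 50.3%. Leaving out 1 library gave 7179 to 8878 calls. That leaves 1 library in a group, which is assumed to vary like the other group. Over these 4 fits no member changed direction or lost its call. The replicate number is shared by the groups in the titles only. The differences between replicates 1 and 2 correlated at -0.07 between the groups over the tested genes, and the replicate block gave 8464 calls with the same 4 members higher and 4 lower. Among the other listed genes the block changed the call of Fermt1 only, which was lost. The log2 ratio shifts between pairs of genes, for which leaving out libraries was chosen after seeing the data, kept their direction. Among genes named beside the members, some changed sign. Adam17 (0.0056) was at -0.13 with library totals and at -0.057 by the upper quartile, and Dsp (0.044) was at -0.093 and -0.019. Library totals also gave -0.062 for Lamb1 (0.075) and -0.0077 for Tspan14, which had passed (0.13). Leaving out 1 library gave -0.037 to 0.052 for Adam17 and -0.021 to 0.0059 for Epcam, and Epcam passed as lower with library totals (-0.15). The cause was not tested. The design has 2 libraries per group, which limits the precision of each spread.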
